A study of Mus musculus with 11 samples.

Results

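Dppa2, Dppa3, Dppa4, Dppa5a, Tex19.1, Dazl, Mael and Sycp3, genes of germ cells and of the naive epiblast, were followed through mouse naive extra-embryonic endoderm (nEnd) cultures. They form a named list of 8 genes out of 48952 gene rows in the bulk table and 32285 genes in the single-cell matrices, and the rule that names them uses no measured value. nEnd is an in vitro counterpart of the primitive endoderm, the blastocyst lineage that forms the yolk sac, and was grown on mouse embryonic fibroblast feeders in RACL, an RPMI-based medium that contains Activin A, the GSK3 inhibitor CHIR99021 and LIF. For bulk RNA sequencing, a line carrying an OCT4-mCherry protein reporter was stained for PDGFRA, an endoderm surface receptor, and sorted without treatment into 3 groups of 3 libraries: cells with PDGFRA alone (Pdgfra+), with both signals (DP) and with OCT4-mCherry alone (Oct4+). For single-cell sequencing, PDGFRA-positive nEnd cells of the line EPUc, which loses Oct4 function on both alleles when given 4-hydroxytamoxifen, were cultured without (-4OHT) or with (+4OHT) the drug, and 1 droplet library was made of each. Each experiment used 1 cell line. The paper calls the 3 libraries of a sorted group biological replicates, and the labels do not say whether they came from separate cultures. The p-values measure the spread between these libraries of 1 line.

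Dppa genes were named for developmental pluripotency association. DPPA2 and DPPA4 are SAP-domain proteins that bind DNA as a pair and keep developmental promoters free of DNA methylation. DPPA3 (STELLA) keeps the methylation adaptor UHRF1 out of the nucleus and protects the maternal genome from demethylation in the zygote, and DPPA5A is a small KH-domain protein typical of naive pluripotent cells. TEX19.1 restrains retrotransposons in germ cells and placenta, MAEL acts in the piRNA pathway, DAZL is an RNA-binding protein that licenses germ cells for sexual differentiation, and SYCP3 builds the axial element of meiotic chromosomes. In somatic and post-implantation cells the CpG-rich promoters of Tex19.1, Dazl, Mael and Sycp3 are held silent by DNA methylation. The non-canonical Polycomb complex PRC1.6, which reaches DNA through E2F6 and MGA/MAX, is known to help silence this class before methylation is laid down.

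Promoters of these last 4 genes are shown because they are the region on which that silencing acts. Each runs 5′ to 3′ on the coding strand from 250 bases before the RefSeq start site to 30 bases after it, and capitals mark CACGTG, the core E-box that MGA/MAX can bind, and GCGGGA, an E2F core, or its reverse complement TCCCGC.

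Tex19.1, GRCm38.p6 chr11:121145893-121146172, plus strand: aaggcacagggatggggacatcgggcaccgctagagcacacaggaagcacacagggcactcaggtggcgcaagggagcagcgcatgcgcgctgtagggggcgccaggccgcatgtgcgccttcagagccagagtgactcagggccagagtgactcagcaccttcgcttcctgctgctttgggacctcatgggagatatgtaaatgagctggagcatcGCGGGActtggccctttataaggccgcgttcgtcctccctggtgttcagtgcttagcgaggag
Dazl, GRCm38.p6 chr17:50293591-50293870, minus strand: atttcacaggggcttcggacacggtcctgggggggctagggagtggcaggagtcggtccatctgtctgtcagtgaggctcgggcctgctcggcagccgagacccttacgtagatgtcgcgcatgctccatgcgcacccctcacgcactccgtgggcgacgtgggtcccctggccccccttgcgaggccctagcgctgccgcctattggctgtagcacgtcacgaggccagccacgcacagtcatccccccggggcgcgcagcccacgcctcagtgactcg
Mael, GRCm38.p6 chr1:166238715-166238994, minus strand: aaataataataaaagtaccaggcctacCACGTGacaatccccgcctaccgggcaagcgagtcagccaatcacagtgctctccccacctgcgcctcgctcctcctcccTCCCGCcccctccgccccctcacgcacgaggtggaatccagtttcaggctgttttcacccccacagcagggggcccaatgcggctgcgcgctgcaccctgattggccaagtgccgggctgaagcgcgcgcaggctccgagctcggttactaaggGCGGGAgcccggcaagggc
Sycp3, GRCm38.p6 chr10:88459337-88459616, plus strand: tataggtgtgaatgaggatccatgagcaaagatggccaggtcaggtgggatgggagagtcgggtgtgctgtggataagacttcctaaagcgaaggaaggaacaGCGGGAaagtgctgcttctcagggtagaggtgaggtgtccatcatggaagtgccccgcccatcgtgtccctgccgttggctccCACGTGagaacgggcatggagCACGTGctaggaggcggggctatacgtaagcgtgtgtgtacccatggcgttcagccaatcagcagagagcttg

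Over the 300-base windows of the RefSeq table, which end 50 bases after the start, Dazl held 28 CpG sites, Mael 24, Tex19.1 16 and Sycp3 15, against a median of 7 over 32851 promoters. CACGTG was found once in the Mael window and at 2 places in the Sycp3 window, 64 and 43 bases before its start. It was not found in the windows of Tex19.1 and Dazl. Of all promoters, 7.15% held CACGTG on either strand. Of the 33 promoters of 26 other germline genes on the list described below, 15 did (45.5%), a share of promoters in which some genes count more than once. GCGGGA occurred in the Tex19.1, Mael and Sycp3 windows, in 19.98% of all promoters and in 24.2% of the other germline promoters. The motifs do not overlap each other in these windows, and a match describes letters only.

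In GENCODE M21 on the same assembly, all 8 members are protein-coding. Dppa2 (chr16:48303908-48319723) and Dppa4 (chr16:48283733-48294237) lie 9670 bases apart on the plus strand. Dppa3 lies at chr6:122626410-122630272 and Dppa5a at chr9:78367052-78368177. Tex19.1 (chr11:121146143-121148319) lies 27465 bases from its paralogue Tex19.2, and the sources used here do not give how reads shared by paralogues were counted. Dazl lies at chr17:50279395-50293636, Mael at chr1:166201201-166238747 and Sycp3 at chr10:88459569-88473236.

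The bulk libraries held 8019631 to 11642571 counts each. Summed endoderm markers ran from 51805 to 69268 CPM (counts per 1000000 of the TMM-scaled library total) in Pdgfra+, 36570 to 52119 in DP and 274 to 699 in Oct4+, and all 12 differed past the threshold between Oct4+ and each of the other groups. Epiblast markers ran from 36.3 to 52.7, 185 to 515 and 2773 to 3886 CPM in the same order. Markers of 2-cell-like cells, a rare state of naive cultures marked by Zscan4, ran from 2.08 to 5.08, 10.8 to 35.5 and 535 to 1796 CPM, and fibroblast (feeder) markers from 134 to 228, 97.0 to 153 and 599 to 1240 CPM. Of this last sum Fn1, a matrix gene that other cells also express, gave 1067, 562 and 964 CPM in the Oct4+ libraries, where the feeder collagen Col1a1 was at 68.3, 5.23 and 2.66 CPM and Dcn at 4.34, 0 and 0. In bulk libraries a smaller share of cells of a type and less RNA per cell cannot be told apart.

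All members passed the filter on low counts. The 4 Dppa genes were ordered Pdgfra+, DP, Oct4+ by their mean, and 3 of them rose from Pdgfra+ to DP. Dppa2 was at 6.71, 4.58 and 2.92 CPM in the Pdgfra+ libraries, at 18.7, 35.0 and 47.7 in DP and at 157, 118 and 145 in Oct4+. The 3 groups did not overlap. DP was 7.17-fold higher than Pdgfra+ (log2 2.84, SE 0.37, adjusted p = 0.0101) and 4.14-fold lower than Oct4+ (log2 -2.05, SE 0.33, adjusted p = 0.000578).

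Dppa4, the partner of Dppa2, was at 8.67, 6.58 and 3.03 CPM in Pdgfra+, 20.6, 45.1 and 28.9 in DP and 75.6, 81.6 and 66.3 in Oct4+. Again no library of one group reached into another. It rose 5.20-fold from Pdgfra+ to DP (log2 2.38, SE 0.37, adjusted p = 0.0131). The step from DP to Oct4+ was smaller (DP 2.36-fold lower, log2 -1.24, SE 0.34, adjusted p = 0.0110) and did not reach the fold set for a call, although without the second DP library it did (log2 -1.57, adjusted p = 0.00471). Over the 9 libraries the log2 CPM of Dppa2 and Dppa4 correlated with r = 0.977, a description of libraries that share their sort groups.

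Dppa5a had the highest level of the members in every library on the scale of CPM per kilobase of exon, with means of 236 ± 74.1, 851 ± 133 and 1600 ± 387 CPM per kilobase (SD, n = 3) in Pdgfra+, DP and Oct4+. Its CPM values were 195, 138 and 104 in Pdgfra+, 440, 537 and 603 in DP and 1084, 718 and 1169 in Oct4+. Every DP library stood above every Pdgfra+ library and below every Oct4+ library. The rise to DP was 3.61-fold (log2 1.85, SE 0.26, adjusted p = 0.0104), and DP was 1.88-fold lower than Oct4+ (log2 -0.91, SE 0.25, adjusted p = 0.0108), under the fold set for a call.

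Dppa3 had the lowest level per kilobase of the Dppa genes in each group. Its level was at 0.244, 0.199 and 0.313 CPM in Pdgfra+, 0.249, 1.18 and 1.31 in DP and 3.26, 10.3 and 6.21 in Oct4+. One DP library lay within the Pdgfra+ range. The difference of DP from Pdgfra+ did not pass the test (log2 1.80, SE 0.75, adjusted p = 0.170), whereas Oct4+ was 7.10-fold higher than DP (adjusted p = 0.00251) and 24.8-fold higher than Pdgfra+ (log2 4.63, SE 0.69, adjusted p = 0.000244).

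Among the germline genes, Dazl had the largest difference between the single-positive groups of the 8 members. It was at 1.10, 0.0996 and 0.522 CPM in Pdgfra+, 1.62, 2.12 and 2.74 in DP and 44.3, 31.4 and 59.96 in Oct4+. DP lay just above Pdgfra+ without overlap and far below Oct4+. Oct4+ was 80.4-fold higher than Pdgfra+ (log2 6.33, SE 0.53, adjusted p = 8.58e-06) and 20.8-fold higher than DP (adjusted p = 4.12e-05). Between DP and Pdgfra+ the log2 difference was 1.95 (SE 0.57, adjusted p = 0.0694), which passed with DESeq2 (adjusted p = 0.00585) and without the first Pdgfra+ library (adjusted p = 0.0456).

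Mael was at 0.244, 0.299 and 1.36 CPM in Pdgfra+, 1.62, 2.24 and 6.54 in DP and 14.0, 17.4 and 12.1 in Oct4+. The groups did not overlap, and the third library was the highest in both Pdgfra+ and DP. DP differed from Pdgfra+ by a log2 value of 2.40 (SE 0.69, adjusted p = 0.0654), which DESeq2 called (adjusted p = 0.00688), as did the fit of the 6 libraries with replicate number as a block (adjusted p = 0.0187) and the fit without the first DP library (adjusted p = 0.0412). Mael was 4.19-fold lower in DP than in Oct4+ (log2 -2.07, SE 0.59, adjusted p = 0.0129), a call lost without the first DP library (log2 -1.69, adjusted p = 0.0503).

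Sycp3 was the one member with a DP library inside the Oct4+ range. It was at 2.44, 0.797 and 1.15 CPM in Pdgfra+, 2.87, 10.1 and 10.98 in DP and 13.4, 13.6 and 10.6 in Oct4+. The first DP library lay near Pdgfra+ and the third DP library above the lowest Oct4+ library. It rose 5.52-fold from Pdgfra+ to DP (log2 2.46, SE 0.55, adjusted p = 0.0329), and no difference between DP and Oct4+ was detected (log2 -0.65, SE 0.49, adjusted p = 0.279). The call was lost in several fits: with replicate number as a block the adjusted p was 0.0506, and without the second or the third Pdgfra+ library, or the second or the third DP library, it was 0.0910, 0.123, 0.107 and 0.103.

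Tex19.1 had the highest mean level per kilobase of the 4 germline genes in each group. It was at 14.5, 16.4 and 7.41 CPM in Pdgfra+, 16.0, 17.2 and 25.5 in DP and 59.3, 60.3 and 162 in Oct4+. The DP and Pdgfra+ libraries overlapped, and the third Oct4+ library stood well above the others. This library also had the highest summed 2-cell-like markers, 1796 CPM against 535 and 1089 in the first and second. Among the Oct4+ libraries it had the highest level of Rhox5, another methylation-sensitive gene (392 CPM against 25.03 and 38.6). Rhox5 ran opposite to Tex19.1 between groups, with higher means of 537 CPM in Pdgfra+ and 634 in DP. The part of the 2-cell-like cells or of the state read from Rhox5 in the Tex19.1 value was not tested. DP did not differ from Pdgfra+ past the threshold (log2 0.61, SE 0.44, adjusted p = 0.408). Oct4+ was 4.80-fold higher than DP (adjusted p = 0.00157) and 7.33-fold higher than Pdgfra+ (adjusted p = 0.000346), and without the third Oct4+ library the log2 value was -1.61 for DP against Oct4+ (adjusted p = 0.00257) and 2.22 for Oct4+ against Pdgfra+ (adjusted p = 0.000383).

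**Figure D1:**
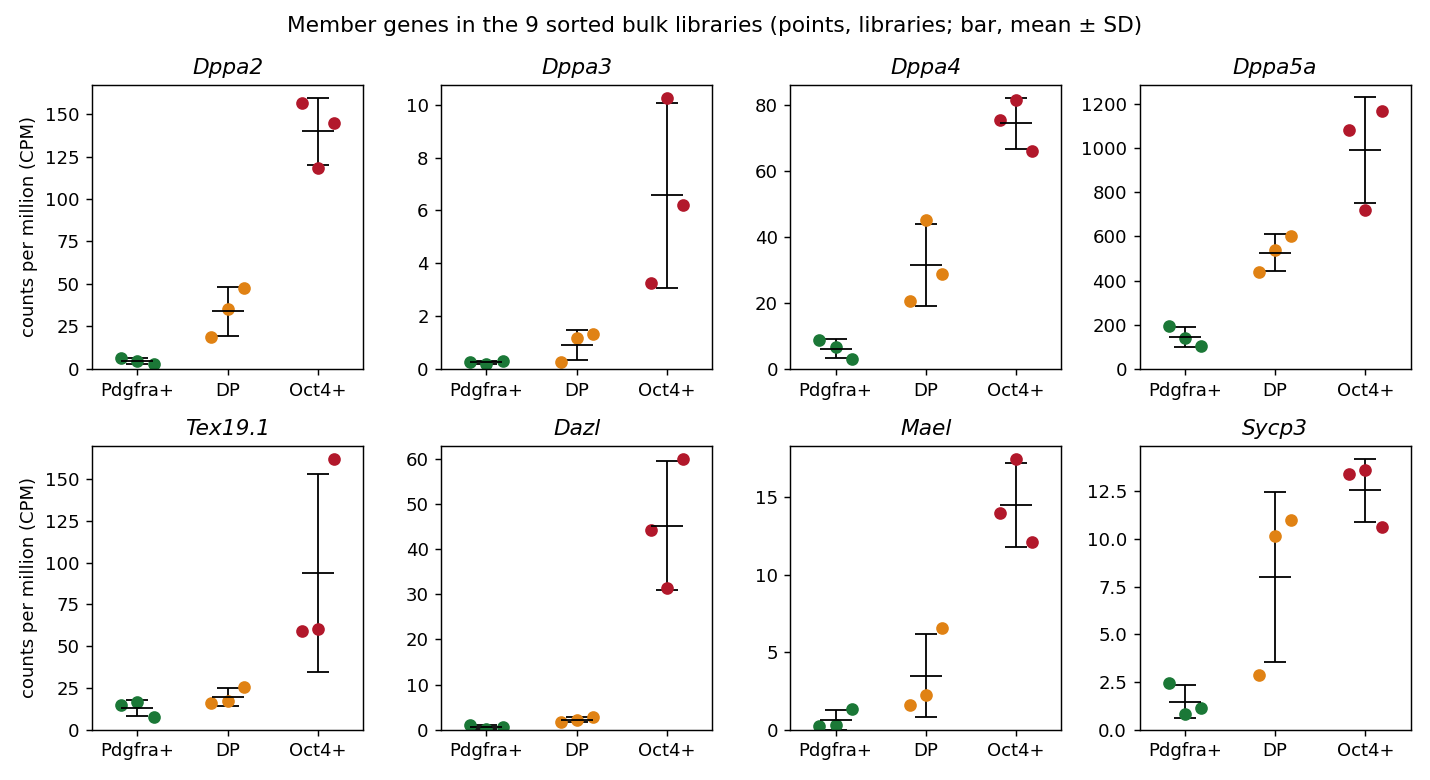
CPM of the 8 members in the 9 sorted bulk libraries, 1 panel a gene with its own linear axis from 0. Points are libraries and bars the mean ± SD of 3. Sycp3 in DP reaches the Oct4+ range, Dazl in DP stays at 1.62 to 2.74 CPM against 31.4 to 59.96 in Oct4+, and Tex19.1 has 1 high Oct4+ library at 162 CPM.

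Counted over the list, 4 of 8 members were called higher in DP than in Pdgfra+ (Dppa2, Dppa4, Dppa5a and Sycp3), where 3.2% of the 14185 genes tested were called higher and 0.691% lower. Against Oct4+, 5 of 8 were called lower in DP (Dppa2, Dppa3, Tex19.1, Dazl and Mael) beside 14.6% of all genes, and none was called higher beside 13.1%. All 8 were called higher in Oct4+ than in Pdgfra+ beside 17.3% of all genes, while 14.7% of all genes were called lower. Every DP library lay above every Pdgfra+ library for 6 members (the 4 called in that comparison, Dazl and Mael), as for 17.4% of all genes. The median log2 difference of the members was 2.16, -2.06 and 4.04 in the 3 comparisons, and that of all genes lay between -0.04 and 0.02. Every Pdgfra+ library lay below every DP library and these below every Oct4+ library for 5 members (Dppa2, Dppa4, Dppa5a, Dazl and Mael), an order that 6.95% of genes showed. The 3 comparisons share libraries, so their counts are not independent of each other.

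**Figure D2:**
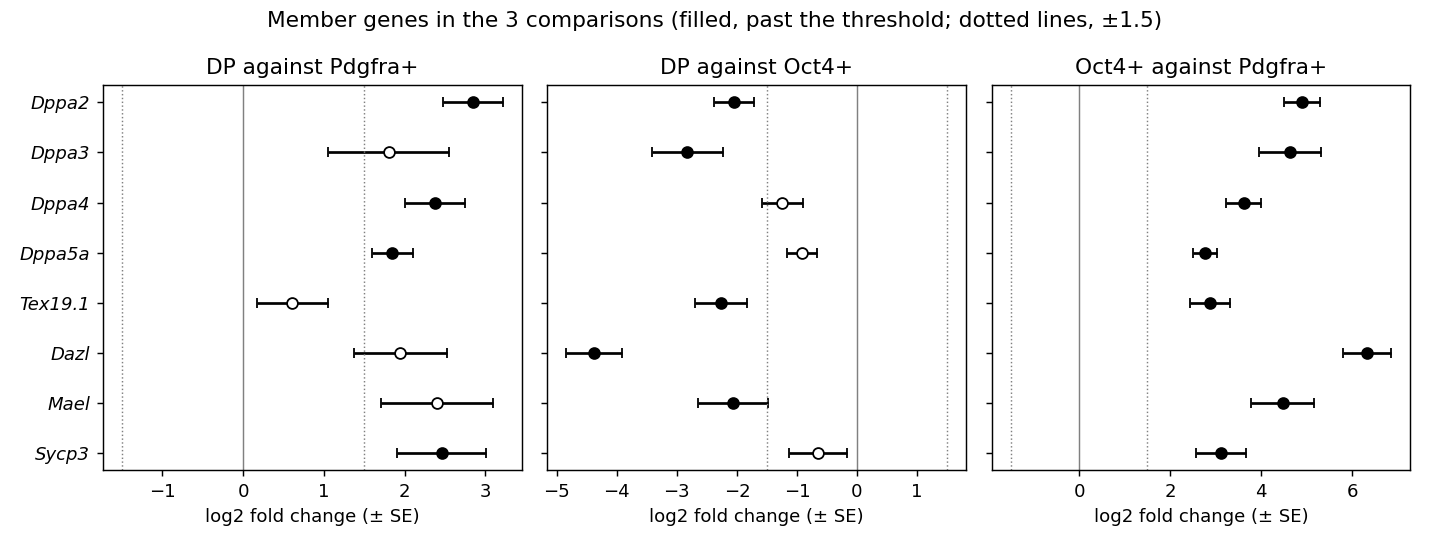
Log2 fold change ± SE of each member in the comparisons of DP with Pdgfra+, DP with Oct4+ and Oct4+ with Pdgfra+. Filled points passed the threshold (adjusted p under 0.05 and a log2 change over 1.5, dotted lines). In DP against Pdgfra+ the points run from 0.61 (Tex19.1) to 2.84 (Dppa2), and all 8 are filled in Oct4+ against Pdgfra+.

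The members took different places between the sorted groups. On a linear CPM scale with the Pdgfra+ mean at 0% and the Oct4+ mean at 100%, the DP mean of Sycp3 was at 58.9% ± 40.2 (SD, n = 3), of Dppa5a at 45.1% ± 9.77, of Dppa4 at 37.2% ± 18.2, of Dppa2 at 21.5% ± 10.8 and of Mael at 20.4% ± 19.3. Dppa3 was at 10.4% ± 9.14, Tex19.1 at 8.34% ± 6.37 and Dazl at 3.56% ± 1.26. Among 12 epiblast markers the median was 3.88%, with Nanog at 2.66% ± 1.71, Sox2 at 4.38% ± 1.36 and Klf2 at 2.29% ± 0.301, while Tcl1 reached 67.0%, Nr0b1 54.0% and Utf1 27.8%. The 10 measurable 2-cell-like markers were at 0.737% to 2.84%. Dazl in DP lay close to the place of Nanog, and Dppa5a above that of Nanog in each of the 3 DP libraries (34.8%, 46.3% and 54.2% against 1.46%, 4.62% and 1.91%). These places were not tested against each other.

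**Figure D3:**
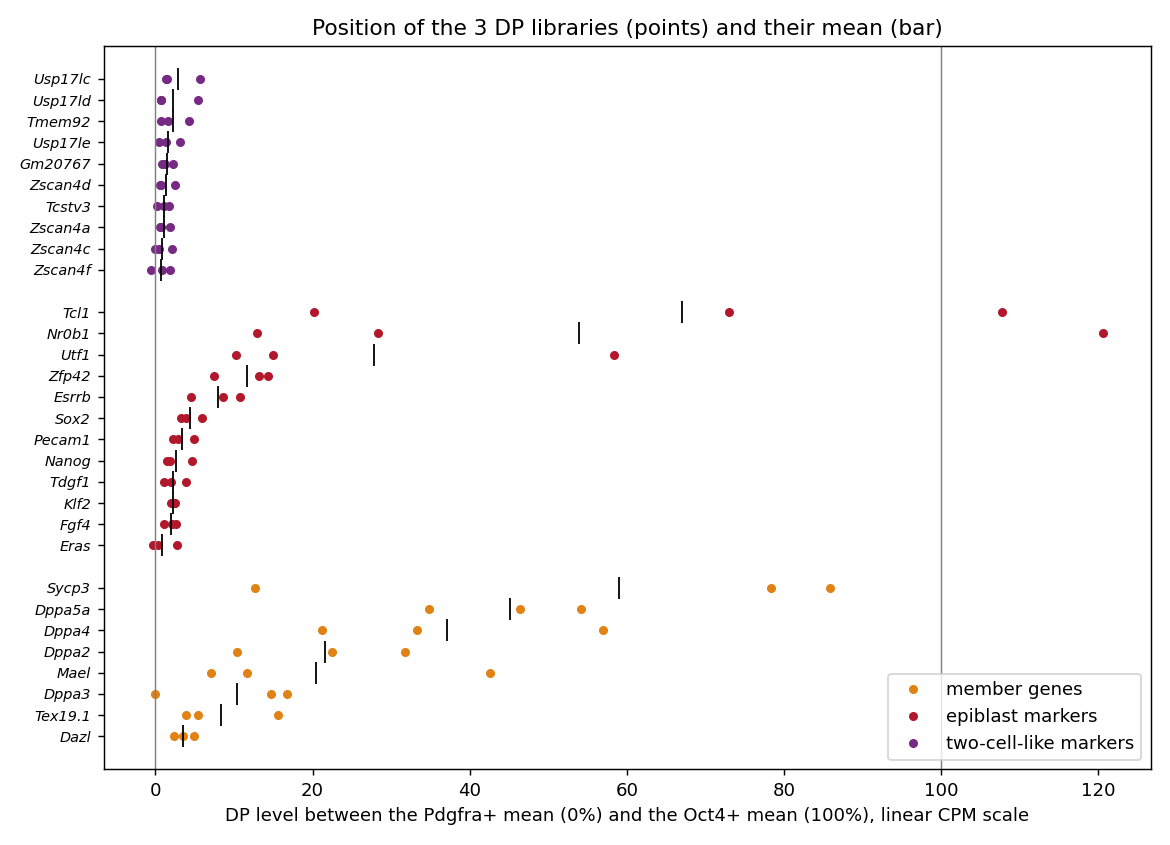
Level of each gene in the 3 DP libraries (points) and their mean (bar) as a percent of the way from the Pdgfra+ mean to the Oct4+ mean, on the linear CPM scale, for the members, 12 epiblast markers and 10 markers of 2-cell-like cells. Dazl sits at 3.56% with Nanog at 2.66%, and Sycp3, Dppa5a and Dppa4 sit at 58.9%, 45.1% and 37.2%.

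Transcripts of the methylation machinery were read beside the members. Dnmt3l, the catalytically inactive cofactor of the de novo enzymes, was at 66.0, 54.9 and 22.9 CPM in Pdgfra+, 231, 625 and 286 in DP and 169, 263 and 319 in Oct4+. It was called higher in DP than in Pdgfra+ (log2 2.99, SE 0.48, adjusted p = 0.0138), a call lost without the third Pdgfra+ library (adjusted p = 0.0516). The de novo enzyme Dnmt3b had its highest mean in DP (545 ± 237 CPM against 165 ± 95.5 in Pdgfra+, SD, n = 3) without passing the test (log2 1.72, adjusted p = 0.0690). Uhrf1, which brings the maintenance enzyme to new DNA, was at 94.9 ± 15.7 CPM in Pdgfra+, 101 ± 12.4 in DP and 294 ± 42.2 in Oct4+, and was called in Oct4+ against each other group and not in DP against Pdgfra+ (log2 1.63 over Pdgfra+, adjusted p = 2.74e-05). In DP against Oct4+ its log2 value of -1.54 lay just past the fold set for a call, which was lost without the first DP, the third DP or the first Oct4+ library. Tet1, which oxidises methylcytosine, was called 3.81 log2 units higher in Oct4+ than in Pdgfra+ (adjusted p = 1.23e-05), and Tet3 lower (log2 -2.96). Dnmt1 did not pass the fold in any comparison. Of the 13 genes of this list, 1 was called higher in DP than in Pdgfra+, beside 3.2% of all genes. In Oct4+ against Pdgfra+, 8 were called higher and 1 lower, beside 17.3% and 14.7% of all genes. All 14 PRC1.6 genes were tested, and edgeR called 0 in each of the 3 comparisons, as did DESeq2. At an unadjusted p under 0.05, 3 differed in DP against Pdgfra+, 11 in DP against Oct4+ and 13 in Oct4+ against Pdgfra+. The share of all genes at that unadjusted limit was not counted, so nothing particular to this list is read from these counts. At an adjusted p under 0.05 with no fold limit, 9 were higher and 4 lower in Oct4+ than in Pdgfra+, where 63.2% of all genes passed.

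The wider germline class was read from lists. Of all genes tested, 3.2% were called higher and 0.691% lower in DP than in Pdgfra+. In Oct4+ against Pdgfra+ these shares were 17.3% and 14.7%, and in DP against Oct4+ 13.1% and 14.6%. Of 36 germline genes known to be silenced by promoter methylation, a list that holds Tex19.1, Dazl, Mael and Sycp3, 33 were tested. In DP over Pdgfra+, 4 were called higher (Sycp3, Stk31, Sohlh2 and Pnldc1) and none lower, with a median log2 difference of 1.49. DESeq2 called 14, the block of the 6 libraries compared 10, and without the second or the third Pdgfra+ library edgeR called none of the list, and without the second or the third DP library 1. With the block of the 6 libraries Sohlh2 lost its call (adjusted p = 0.0539), as did Sycp3. In Oct4+ over Pdgfra+, 26 were called higher and 1 lower (Rhox6), with a median of 3.15, and in DP against Oct4+ 22 were lower and Rhox6 higher. Sohlh2, a germ cell transcription factor, had the largest rise of this list in Oct4+ over Pdgfra+ among genes at 5 CPM or more (log2 6.51), and Tex11, a meiotic gene on the X chromosome, had the largest fall in DP against Oct4+ (log2 -4.92).

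Of 19 tested piRNA pathway genes, 2 were called higher in DP than in Pdgfra+ (Gpat2, log2 1.87, and Pnldc1), against 6 with DESeq2, 7 with the block of the 6 libraries, and none without the second or the third Pdgfra+ library or the second DP library. In Oct4+ over Pdgfra+ 16 were higher, led among genes at 5 CPM or more by Gtsf1 (log2 5.71), and 2 lower, Tdrd7 (log2 -3.22) and Tdrd5 (log2 -2.86). Of 16 tested meiotic genes, 3 were higher in DP than in Pdgfra+ (Sycp3, Dmc1 and Meioc). Dmc1 and Meioc fell under the filter on low counts with the block of the 6 libraries and were not tested there, and without the second or the third library of either group none of the list was called. In Oct4+ over Pdgfra+ 11 were higher, led among genes at 5 CPM or more by Meioc (log2 6.47) and the recombinase Dmc1 (log2 6.37). Of 10 tested regulators of primordial germ cells, Prdm14 and Tfap2c were called higher in DP than in Pdgfra+, and DESeq2 called 5. Both calls were lost without any 1 of the Pdgfra+ libraries or without the second or the third DP library (adjusted p up to 0.175 for Prdm14 and 0.129 for Tfap2c). In Oct4+ 8 were higher, Prdm14 most among genes at 5 CPM or more (log2 7.68), and the receptor Kit lower (log2 -2.44). The naive pluripotency list had 12 of 16 called higher in DP, with a median log2 difference of 2.93, and 5 without the third Pdgfra+ library. Beside all these lists stand 3.2% of all genes called higher in DP over Pdgfra+. For Oct4+ over Pdgfra+ the shares were 17.3% higher and 14.7% lower.

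The genes whose log2 CPM most resembled each member over the 9 libraries, among 10511 other genes at 10 CPM or more in some group, were the following. For Dppa2 they were Zfp990, Deptor and Gpa33 (r = 0.986, 0.985 and 0.984), for Dppa4 Baiap2, Zfp979 and Zfp982 (0.996, 0.990 and 0.987) and for Dppa5a Spp1, Alpl and Ooep (0.992, 0.986 and 0.986). For Dppa3 they were Ssbp1, Emg1 and Mrps9 (0.992, 0.988 and 0.985), for Tex19.1 Mtx2, Dcps and Btbd10 (0.985, 0.984 and 0.983) and for Dazl Dusp5, Epha7 and Ninl (0.991, 0.991 and 0.990). For Mael they were Mgll, Stmn1 and Phyh (0.992, 0.991 and 0.980) and for Sycp3 Evpl, Cnksr3 and Dmd (0.992, 0.977 and 0.971). Pairs of members correlated between 0.722 (Tex19.1 and Sycp3) and 0.983 (Dppa2 and Dppa5a), over libraries that share their sort groups.

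In the single-cell libraries, 5173 of 6896 barcodes of -4OHT and 6299 of 7283 of +4OHT passed the filters, with median depths of 17732 and 12647 UMIs (unique molecular identifiers, each 1 captured transcript), and 17 of the barcodes kept occur in both libraries. With 1 library per condition there is no test: values below compare these libraries and cells, and the intervals (95%, exact) cover counting error only. Clusters were named from marker genes. The -4OHT library held 3631 epiblast-like, 1329 endoderm-like and 158 Zscan4-positive 2-cell-like cells, and +4OHT held 6063 endoderm-like, 4 2-cell-like and no epiblast-like cells. The trophectoderm-like cluster (35 and 200 cells) also carried endoderm transcripts, and the fibroblast-like cluster (20 and 32 cells) carried 4221 CPM of endoderm markers. In the trophectoderm-like cluster epiblast markers summed to 339 CPM and trophectoderm markers to 184. Within the endoderm, most -4OHT cells lay in a cluster led by Amn and Cubn, genes of an endocytic receptor (689 cells), and in 1 led by Pitx1 and Car4 (443), whereas +4OHT cells lay in Pitx1/Car4 (2091), Aifm3/Robo2 (1983) and Clu/Rarres1 (1506) clusters. Whether the 3′ tag of Pou5f1 (the gene of OCT4) lies outside the inactivated part is not given in the sources used here, so its transcript does not check the deletion; it stood at 48.6 CPM in epiblast-like cells of -4OHT, and in endoderm-like cells at 13.9 CPM in -4OHT and 1.75 in +4OHT.

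In -4OHT the Dppa genes stood higher in epiblast-like than in endoderm-like cells. Summed UMIs gave Dppa2 at 195 CPM (interval 192 to 198) and 60.5 CPM (57.2 to 64.0), a ratio of 3.22 (3.04 to 3.41). Dppa4 had a ratio of 3.12 (2.86 to 3.42), and Dppa5a stood at 4763 and 2234 CPM, a ratio of 2.13 (2.11 to 2.15). Dppa3 had the largest ratio, 30.9 (19.0 to 54.2), from 1711 UMIs in epiblast-like and 16 in endoderm-like cells (log2 4.95, and 3.77 without the filter on cells). Its UMIs were held by few cells: 563 of the 3631 epiblast-like cells had any, and the highest cell had 39.

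The germline members did not follow the same order in single cells. Tex19.1 was at 37.0 CPM in epiblast-like and 38.7 in endoderm-like cells of -4OHT (ratio 0.955, 0.883 to 1.03), and Dazl at 3.52 and 3.92 CPM (ratio 0.898, 0.698 to 1.17). Mael was higher in epiblast-like cells (3.34 against 0.956 CPM, ratio 3.49, 2.21 to 5.82). Sycp3 was lower in them (7.996 against 13.6 CPM, ratio 0.587, 0.508 to 0.679).

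The Dazl value of endoderm-like cells rested on few cells, since 4 of 1329 cells held 58 of the 82 UMIs and the highest held 21. The share of cells with a Dazl UMI ran the other way, 1.88% (1.22 to 2.76) against 5.84% (5.10 to 6.65) of epiblast-like cells, and after thinning to 5000 UMIs 0.701% against 1.72%, so no order is read for Dazl. With the stricter filter of at least 2000 genes and at most 5% mitochondrial UMIs the log2 ratio changed from -0.15 to 1.501, higher in epiblast-like cells.

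The 2-cell-like cells of -4OHT had the highest levels of several members. Dppa2 was at 719 CPM, 3.69 times the epiblast-like level (3.52 to 3.87), Tex19.1 at 103 CPM (2.80 times, 2.47 to 3.16), Dazl at 22.3 CPM (6.33 times, 4.71 to 8.38) and Mael at 10.4 CPM (3.12 times, 2.04 to 4.59). Sycp3 (1.98 times) and Dppa3 (1.67 times, 1.37 to 2.03) were also above the epiblast-like level, and Dppa4 (0.958, 0.833 to 1.10) and Dppa5a (0.984, 0.967 to 1.002) stood near it. Sycp3, at 15.8 CPM here, was higher still in Amn/Cubn cells (20.5 CPM). For Dppa3, 4 of the 158 cells held 58 of the 110 UMIs, so its ratio rests on few cells and no order is read for it. Of these cells, 95.6% had a Dppa2 UMI and 20.3% a Dazl UMI.

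Both epiblast-like clusters had these genes at unequal levels. Cells led by Cdx1 and Mylpf (2327) had 0.374 times the Dppa3 level (0.339 to 0.412) and 0.393 times the Tex19.1 level (0.363 to 0.425) of cells led by Dpys and Trh (1304). Dppa2 (1.23), Dppa4 (1.04) and Dppa5a (1.19) differed less.

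Inside the -4OHT endoderm Dppa2, Dppa4, Dppa5a and Sycp3 were higher in the Amn/Cubn cells. Against Pitx1/Car4 cells of the same library, Dppa2 was at 87.8 and 15.9 CPM (ratio 5.52, 4.48 to 6.87), Dppa4 at 39.2 and 5.47 (7.17, 5.04 to 10.5), Dppa5a at 3143 and 881 (3.57, 3.47 to 3.67) and Sycp3 at 20.5 and 2.65 (7.72, 4.66 to 13.7). Tex19.1 did not share this pattern (37.6 and 45.4 CPM, ratio 0.829, 0.713 to 0.965), and the intervals of Dppa3 (1.30, 0.386 to 5.60) and Dazl (1.35, 0.811 to 2.34) included 1. For Dazl, 4 Amn/Cubn cells held 43 of 60 UMIs and 1 Pitx1/Car4 cell held 17 of 21. Its interval does not cover this unevenness, and no order is read for it. Mael had 17 UMIs in Amn/Cubn and 1 in Pitx1/Car4 cells. Amn/Cubn cells held more Sycp3 than epiblast-like cells (2.56 times), with 136 of 689 cells having a UMI. The same cells had Dnmt3l at 209 CPM and Dnmt3b at 174, against 115 and 58.2 in epiblast-like cells and 13.3 and 10.9 in Pitx1/Car4 cells.

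In droplet data, free RNA sets a floor under such values. As a percent of its epiblast-like level, Nanog was at 4.81% in Amn/Cubn, 4.16% in Pitx1/Car4 and 10.8% in fibroblast-like cells of -4OHT. Dppa2 was at 45.1%, 8.17% and 19.98% in the same cells, Dppa4 at 48.2%, 6.72% and 21.7%, and Dppa3 at 3.65%, 2.80% and 7.48%. Dppa5a was at 66.0%, 18.5% and 20.1%. Tex19.1 was at 102%, 123% and 57.4%, the last with an interval of 29.6 to 100. Mael, Sycp3 and Dazl had 2, 1 and 0 UMIs in the fibroblast-like cells, too few to give a floor for them. In Amn/Cubn cells Dppa2, Dppa4 and Dppa5a stood above the Nanog and fibroblast percentages. Dppa3 in both endoderm clusters, and Dppa2 and Dppa4 in Pitx1/Car4 cells of -4OHT, were not above the fibroblast-like percentage, and no expression is read from them. The fibroblast-like values rest on 20 cells and are uneven, since 4 cells held 18 of 22 Dppa2 UMIs, all 10 Dppa4 UMIs and 362 of 542 Dppa5a UMIs. Dppa5a in Pitx1/Car4 cells was near the fibroblast-like percentage in -4OHT, and it stood at 646 CPM in the Pitx1/Car4 cells of +4OHT, a library with no epiblast-like cells. After thinning, 34.1% of Amn/Cubn, 5.95% of Pitx1/Car4 and 10.0% of fibroblast-like cells (2 of 20) had a Dppa2 UMI, with unthinned median depths of 17787, 12645 and 26791 UMIs and unthinned shares of 70.7%, 13.3% and 35.0%.

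**Figure D4:**
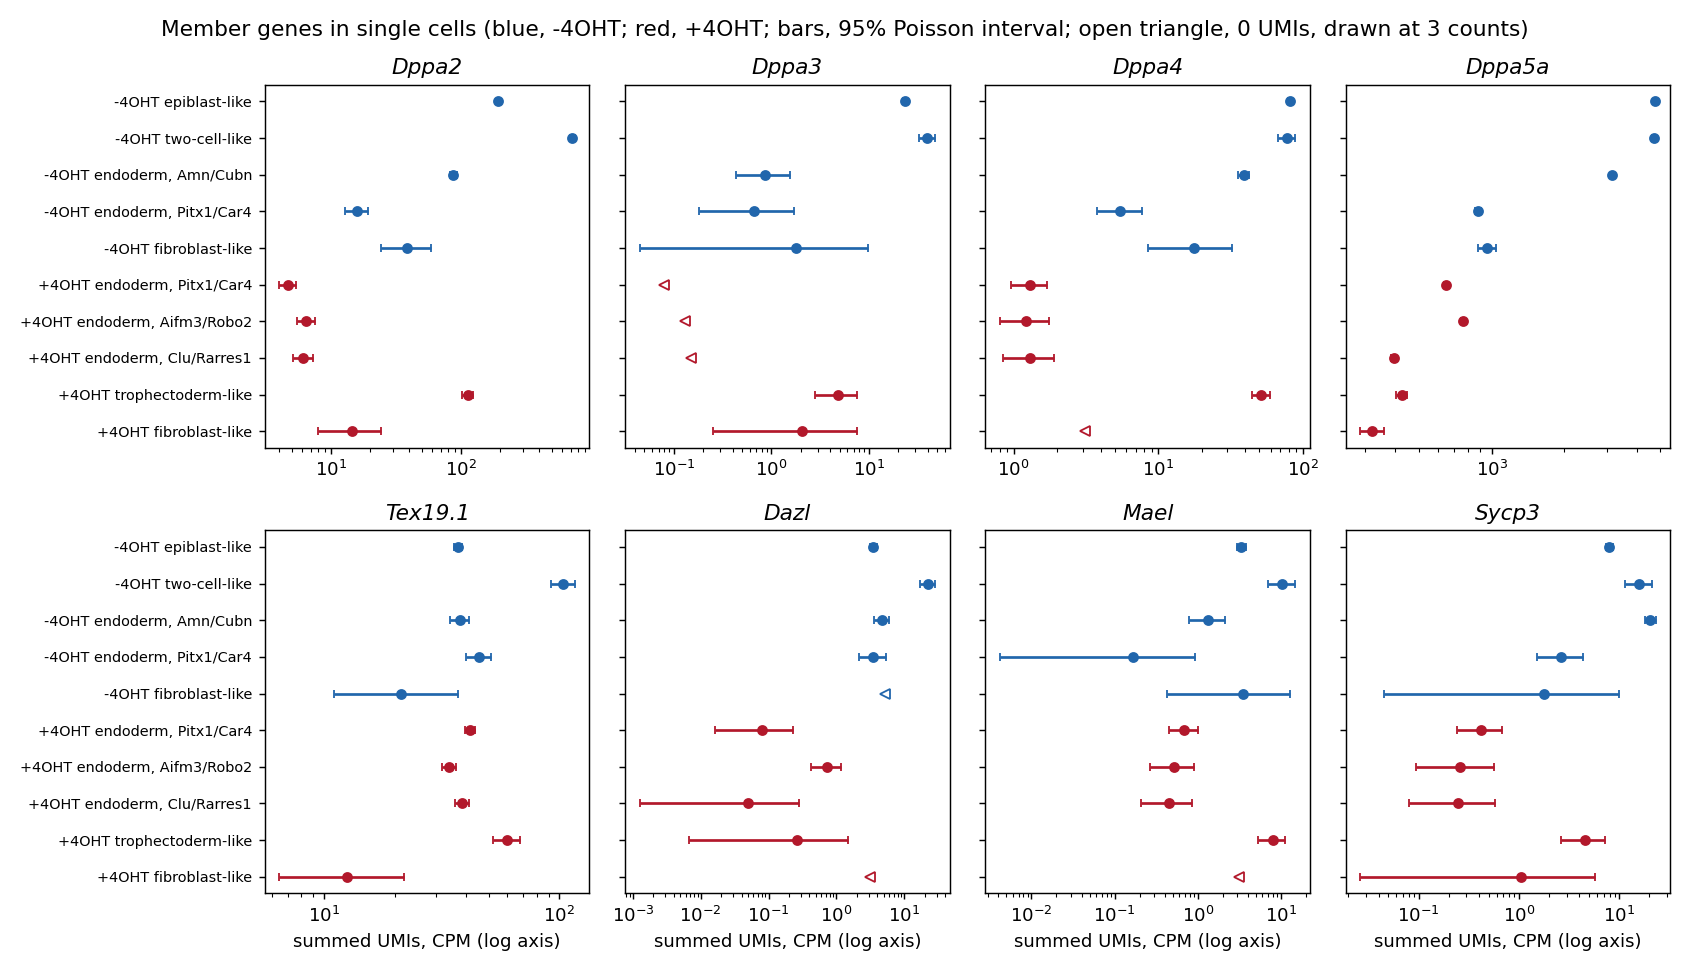
Summed UMIs as CPM (log axis) of each member in named cells of the -4OHT (blue) and +4OHT (red) libraries, with 95% Poisson intervals; open triangles mark 0 UMIs, drawn at 3 counts. Dppa2 runs from 719 CPM in 2-cell-like cells to 87.8 in Amn/Cubn and 15.9 in Pitx1/Car4 cells of -4OHT, and Tex19.1 lies between 34.0 and 45.4 CPM in the 5 endoderm groups drawn.

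Endoderm-like cells of +4OHT had less Dppa2, Dppa4, Dppa5a and Sycp3 than those of -4OHT. Dppa2 was at 6.501 against 60.5 CPM (9.31 times lower), Dppa4 at 1.38 against 26.1 (18.9 times lower), Dppa5a at 643 against 2234 (3.47 times lower) and Sycp3 at 0.362 against 13.6 (37.6 times lower). Dppa3 had 0 UMIs in 6063 cells, which allows a share of cells with a UMI of up to 0.0495% in +4OHT, against 16 UMIs in -4OHT that are not read as expression, so no fold is given. Tex19.1 was at 38.6 and 38.7 CPM. Mael was at 0.631 against 0.956 CPM, on 54 and 20 UMIs. Dazl was at 0.281 against 3.92 CPM, where 4 cells of -4OHT held 58 of the 82 UMIs. These classes are made of different clusters, as given above, and the epiblast-like cells that could give free RNA were in -4OHT only.

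Within Pitx1/Car4 cells, present in both libraries, the differences of the Dppa genes were smaller. Dppa2 was 3.39 times lower in +4OHT (ratio 0.295, 0.229 to 0.383), Dppa4 4.23 times lower (0.237, 0.149 to 0.380), Dppa5a 1.36 times lower (0.733, 0.712 to 0.755) and Tex19.1 at a ratio of 0.916 (0.806 to 1.05). Sycp3 had 16 UMIs in each (ratio 0.159, 0.0746 to 0.340). In Aifm3/Robo2 cells (137 in -4OHT and 1983 in +4OHT) Dppa2 had a ratio of 0.505 (0.312 to 0.862) and Dppa4 of 0.3004 (0.122 to 0.887) and Sycp3, on 4 and 6 UMIs, of 0.0965 (0.0229 to 0.465), whereas Dppa5a (1.11, 1.04 to 1.18) and Tex19.1 (1.40, 1.005 to 2.02) were higher in +4OHT. The epiblast factor Nanog was at 7.46 CPM in Pitx1/Car4 cells of -4OHT and 0.132 in those of +4OHT. As given above, no expression of Dppa2 or Dppa4 is read from Pitx1/Car4 cells of -4OHT. In Aifm3/Robo2 cells of -4OHT they stood at 6.57% and 4.96% of the epiblast-like level, also not above the fibroblast-like percentages. The ratios of Dppa2 and Dppa4 in both clusters are therefore not read as differences in expression. The part of free RNA in the differences between libraries was not tested. In +4OHT, Dppa5a was seen in 69.8% of thinned endoderm-like cells against 29.0% of fibroblast-like cells, and Dppa2 in 3.07% against 9.68%. This fibroblast-like cluster had 32 cells, of which 4 held 12 of 14 Dppa2 UMIs and 213 of 309 Dppa5a UMIs. Such few and uneven cells do not fix a background level, and no expression of Dppa2 is read from the endoderm-like cells.

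Trophectoderm-like cells of +4OHT differed from the endoderm around them. They held Dppa2 at 113 CPM (17.3 times the endoderm-like level, 15.2 to 19.7) and Dppa4 at 51.5 CPM (37.3 times), with Dppa5a lower (0.660, 0.628 to 0.694). Mael was at 7.97 CPM (12.6 times) and Sycp3 at 4.51 CPM (12.5 times). These 2 folds rest on 30 and 17 UMIs, against 54 and 31 in endoderm-like cells. Nanog was at 28.1 CPM in them and at 0.0935 CPM in the endoderm-like cells. Of 200 cells, 58.0% had a Dppa2 UMI.

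Splitting the endoderm-like cells of -4OHT by a Pou5f1 UMI after thinning to 5000 UMIs gave 69 cells with and 1214 without. Dppa2 was 1.64 times higher in cells with Pou5f1 (1.07 to 2.42), Dppa4 2.18 times (1.18 to 3.74), Dppa5a 1.54 times (1.44 to 1.64) and Sycp3 2.73 times (1.19 to 5.55). Of the cells with Pou5f1 91.3% were Amn/Cubn cells, against 48.9% of those without. Within Amn/Cubn cells alone the ratios were 1.04 for Dppa2 (0.677 to 1.54), 1.23 for Dppa4 (0.652 to 2.16), 1.02 for Dppa5a (0.955 to 1.09) and 1.601 for Sycp3 (0.694 to 3.27). With cells thinned to 2500 UMIs (42 with and 1276 without Pou5f1) the ratios over all endoderm-like cells were 1.25 for Dppa2 (0.533 to 2.52), 1.25 for Dppa4 (0.252 to 3.80), 1.32 for Dppa5a (1.17 to 1.49) and 1.599 for Sycp3 (0.187 to 6.19), so that only the interval of Dppa5a lay above 1.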

How the data were processed

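Bulk libraries were stranded and read single-end, and the values the authors deposited are raw counts per gene symbol. The sources used here give no aligner, counter, build or annotation for the bulk table. The single-cell matrices the authors deposited hold UMI counts per gene and barcode from Cell Ranger 6.1.2 (matrix headers), with mm10 named in the submitters' processing notes. Members, lists and markers were chosen with earlier results of these data known.

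Bulk counts were fitted with edgeR 4.0.16 (quasi-likelihood, TMM, default filter on low counts, 14185 of 48952 genes, all 9 libraries, group as the only term), and 35 blank lines were left out. A call needs a Benjamini-Hochberg adjusted p under 0.05 and a log2 change over 1.5. DESeq2 1.42.0 was an alternative. The procedure was tested on simulated data. Deviations from the group means of same-numbered DP and Pdgfra+ libraries correlated (r = 0.271, 0.477 and 0.321), so the replicate block is printed beside calls it changes in that comparison, where genes pass the low-count filter of that fit. No replicate pair agreed within sampling noise (chi-square per degree of freedom 16.7 to 36.6).

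Cells with at least 1000 genes and at most 10% mitochondrial UMIs were kept (scanpy 1.11.5). Scrublet marked 2.44% of -4OHT barcodes, which were removed, and none of +4OHT, where it did not work. Cells were clustered (2000 variable genes, 20 components, Leiden 0.6), and a cluster took the marker list with its highest relative sum, a rule set after seeing the data. CPM are UMIs summed over cells. Ratios carry exact conditional intervals.

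Genes named in the text are the members, chosen regulators and, per list and comparison, up to 3 called genes per direction, ranked by size of change, at 5 CPM or more, and the 3 genes most correlated with each member. Rhox5, and other genes listed to complete counts of 5 or fewer, were named after their values were seen. Of 8 members, 4 matched the RefSeq promoter table.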

Additional observations from a re-analysis of the deposited data

How the results depend on the processing

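Counts of called genes in DP against Pdgfra+ (552) depended most on the processing: DESeq2 gave 870, no filter on low counts gave 1023, and leaving out 1 library at a time gave 57 (without the third Pdgfra+ library) to 728. The members called there ran from 3 to 5 of 8 when 1 library was left out. Of the values of single members under bulk alternatives, 291 kept their direction and call, and 8 gained and 8 lost a call, as given beside Sycp3, Mael, Dazl and Dppa4. With replicate number as a block, Sycp3 in DP against Pdgfra+ lost its call (log2 2.43, adjusted p = 0.0506 over 9 libraries, and 0.0518 over the 6 compared), and Mael gained one over the 6. In the other comparisons same-numbered libraries did not deviate together, and the block changed no call of a member. RLE size factors moved the median log2 difference of all genes to -0.10 in DP against Oct4+.

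For single cells, log2 ratios of epiblast-like over endoderm-like cells moved without a filter on cells for Dppa2 (1.596), Dppa3 (3.77), Dppa4 (1.51) and Dppa5a (1.01). With at least 2000 genes and at most 5% mitochondrial UMIs they were 2.27 (Dppa2), 3.59 (Dppa3), 1.99 (Dppa4), 1.55 (Dppa5a), -0.21 (Tex19.1), 1.501 (Dazl), 2.55 (Mael) and -0.47 (Sycp3), and at Leiden resolution 1.0 1.93 (Dppa2), 2.02 (Dppa4), 1.16 (Dppa5a) and -0.52 (Sycp3). The classes also changed. With the stricter filter the Amn/Cubn cluster held 79 -4OHT cells, against 689 in the main clustering. At resolution 1.0 a cluster with 224 -4OHT cells, Cubn and Amn among its leading genes, was named trophectoderm-like at a relative sum of 1.03. Its cells thus left the endoderm-like class. For +4OHT over -4OHT the stricter filter gave -2.67 (Dppa2), -3.76 (Dppa4), -1.53 (Dppa5a), 0.22 (Tex19.1) and -2.88 (Dazl), resolution 1.0 gave -2.99 (Dppa2), -3.86 (Dppa4) and -1.73 (Dppa5a), and no filter gave -1.86 (Dppa5a). In the split by Pou5f1, thinning to 2500 UMIs gave 0.40 for Dppa5a (0.33 for Dppa2, 0.32 for Dppa4 and 0.68 for Sycp3, whose intervals then included 0), and the split within Amn/Cubn cells, chosen after seeing the data, gave 0.056 (Dppa2) and 0.027 (Dppa5a). The cause was not tested. Leaving out cells of both libraries over 1 doublet score, also chosen after seeing the data, moved no ratio. Dppa3 (16 UMIs in -4OHT, 0 in +4OHT) and Mael in endoderm-like cells are limited by depth.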

Other observations

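Within the endoderm-like cells of +4OHT, which hold no epiblast-like cells beside them, a cluster of 455 cells led by Gkn2 and Tff1 had Dppa2 at 21.5 CPM and Dppa5a at 1088 CPM. Cells led by Clu and Rarres1 had 6.14 and 393 CPM, ratios of 3.51 (2.65 to 4.62) for Dppa2 and 2.77 (2.67 to 2.87) for Dppa5a, with Tex19.1 at a ratio of 0.966 (0.811 to 1.14). After thinning, 10.8% of Gkn2/Tff1 and 2.498% of Clu/Rarres1 cells had a Dppa2 UMI, against 9.68% of fibroblast-like cells of this library. These last cells are few and uneven, and the Dppa2 ratio is not read as a difference in expression. Pou5f1 stood at 12.7 CPM in Gkn2/Tff1 cells and at 0.949 in Clu/Rarres1 cells. With 1 library these are values of these cells, with no test.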
